A study of Arabidopsis thaliana with 6 samples.

Results

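WRKY transcription factors are plant proteins that bind DNA through a domain named after its conserved amino acids. The genes described here are 39 members of this family in *Arabidopsis thaliana*, listed by gene identifier as members of the family. The rule did not use expression values, but the list was drawn up with earlier results of these data known, so the shares given for it are a description. All 39 were rows of the deposited expression table of 24340 genes. The RNA came from shoot apices of plants carrying mutations in *ap1* and *cal*, which form masses of meristems in place of flowers. SNP samples (3 biological replicates) were treated for 24 h with 1 mM SNP, sodium nitroprusside, a donor of nitric oxide (NO) that also contains iron and cyanide, in 0.025% of the wetting agent Silwet. Mock samples (3 biological replicates) had Silwet without SNP for the same time. Both groups carried the *ap1* and *cal* mutations, so no wild-type apices were part of the comparison, and no sample held an inactive form of the donor.

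The WRKY domain recognises a short DNA element, the W-box, which lies upstream of many defence genes and of many WRKY genes themselves. The family is known for its part in immunity, leaf senescence, nutrient starvation and oxidative stress, and several members are rapidly induced by pathogens or wounding. WRKY proteins are sorted by structure into group I with a pair of WRKY domains, group II with its subgroups a to e, and group III, and their partners include MAP kinases, calmodulin and VQ-motif proteins.

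To show where W-boxes lie in relation to the genes whose transcripts changed, the 300 bases upstream of the annotated gene start were read from the TAIR10.1 genome. The windows printed here belong to the 2 genes with the largest log2 fold changes on the scale used here (*WRKY40*, *WRKY75*), to *WRKY33* with 3 W-boxes, to *WRKY15* with the highest TPM, and to *WRKY17* and *WRKY54* among the genes that fell. Capitals mark the W-box core, TTGAC on the printed strand or its reverse complement, and each window is written in the gene's own direction. They lie at chr1:30383261-30383560 (plus strand, *WRKY40*), chr5:4151202-4151501 (minus strand, *WRKY75*), chr2:16107935-16108234 (plus strand, *WRKY33*), chr2:9924586-9924885 (plus strand, *WRKY15*), chr2:10439470-10439769 (minus strand, *WRKY17*) and chr2:17002529-17002828 (minus strand, *WRKY54*).
WRKY40: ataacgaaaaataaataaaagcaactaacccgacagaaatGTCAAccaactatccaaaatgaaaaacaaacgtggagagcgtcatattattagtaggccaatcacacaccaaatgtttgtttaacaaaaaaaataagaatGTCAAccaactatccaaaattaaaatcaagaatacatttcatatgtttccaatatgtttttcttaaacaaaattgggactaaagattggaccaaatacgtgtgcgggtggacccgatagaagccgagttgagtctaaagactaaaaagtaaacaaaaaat
WRKY75: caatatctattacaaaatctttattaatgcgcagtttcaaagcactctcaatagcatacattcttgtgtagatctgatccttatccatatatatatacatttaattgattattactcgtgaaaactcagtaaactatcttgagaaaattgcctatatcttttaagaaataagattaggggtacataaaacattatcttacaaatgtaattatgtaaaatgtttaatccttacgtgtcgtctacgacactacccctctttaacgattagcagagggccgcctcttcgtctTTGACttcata
WRKY33: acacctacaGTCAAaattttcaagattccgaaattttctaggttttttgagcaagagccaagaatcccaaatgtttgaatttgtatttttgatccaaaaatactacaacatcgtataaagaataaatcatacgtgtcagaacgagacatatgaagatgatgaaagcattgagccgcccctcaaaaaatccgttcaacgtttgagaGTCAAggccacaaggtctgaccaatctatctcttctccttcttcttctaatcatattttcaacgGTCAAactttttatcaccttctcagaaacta
WRKY15: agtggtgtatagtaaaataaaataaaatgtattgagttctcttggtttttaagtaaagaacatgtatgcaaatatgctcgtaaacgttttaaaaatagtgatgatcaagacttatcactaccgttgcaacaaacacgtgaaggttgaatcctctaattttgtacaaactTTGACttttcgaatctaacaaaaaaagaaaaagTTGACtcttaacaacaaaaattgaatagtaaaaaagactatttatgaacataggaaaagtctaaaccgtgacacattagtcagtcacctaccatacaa
WRKY17: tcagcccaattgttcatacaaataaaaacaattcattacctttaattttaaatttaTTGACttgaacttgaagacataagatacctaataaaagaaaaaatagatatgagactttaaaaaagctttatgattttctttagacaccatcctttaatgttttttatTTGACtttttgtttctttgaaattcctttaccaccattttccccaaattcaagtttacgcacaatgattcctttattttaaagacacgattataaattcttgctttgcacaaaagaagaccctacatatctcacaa
WRKY54: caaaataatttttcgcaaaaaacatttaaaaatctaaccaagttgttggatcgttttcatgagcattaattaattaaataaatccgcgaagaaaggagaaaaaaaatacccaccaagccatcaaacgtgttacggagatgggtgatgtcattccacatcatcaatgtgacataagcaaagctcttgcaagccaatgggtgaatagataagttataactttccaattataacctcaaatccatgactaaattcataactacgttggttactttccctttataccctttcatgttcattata

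In *WRKY33* all 3 cores extended to a full W-box, TTGACC or TTGACT. In *WRKY40* neither of its 2 cores did, and the window of *WRKY54* held no core. In *WRKY75* the core lay 11 to 7 bases before the gene start.

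The WRKY domain itself differs within the family at its defining heptad. The 21 bases that encode it are shown for 4 genes of subgroup IIc, with the codon of the sixth amino acid in capitals. *WRKY50* and *WRKY51* carry a lysine codon there, and the other 37 members carry a glutamine codon. *WRKY75* and *WRKY45* are shown as the subgroup members with the glutamine codon that rose most. The sequences lie at chr5:4150786-4150806 (minus strand, *WRKY75*), chr3:326932-326952 (minus strand, *WRKY45*), chr5:9147579-9147599 (minus strand, *WRKY50*) and chr5:25908864-25908884 (plus strand, *WRKY51*).
WRKY75: tggaggaaatatggcCAAaag
WRKY45: tggaggaagtacggcCAAaaa
WRKY50: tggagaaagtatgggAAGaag
WRKY51: tggaggaagtatggcAAGaaa

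The 8 members of group I encoded the heptad 2 times, and each of the other 31 members encoded it once.

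Of the 39 WRKY genes, 34 reached a mean of 0.5 TPM (a transcript level corrected for gene length and sample total) over the 6 samples and were tested. In the SNP-treated apices 14 of them were higher and 3 lower past the criterion used throughout, a change of 1.5-fold or more and an unadjusted p below 0.01. Among all 18966 tested genes, 10.5% were higher and 6.40% were lower by the same criterion. The called genes made up 50% of the tested members of this list, against 16.9% of all tested genes. Of 33 WRKY genes outside the list 17 were tested, and 5.88% of these were called. The 50% is thus not the share of the whole family. The median log2 fold change was 0.41 for the tested WRKY genes and 0.06 for all tested genes. *WRKY26* and *WRKY30* passed the filter only through their level in the SNP samples. Of the 32 members with a mean of at least 0.5 TPM in the Mock samples alone, 12 were called higher and 3 lower. The share of all genes under this Mock filter was not computed, so the 10.5% and 6.40% are not its background. At an adjusted p under 0.05 with no fold limit, 14 members were higher and 4 lower, where the shares of all tested genes were 16.6% and 13.0%. These fold changes were taken on log2(TPM + 0.5), a scale that understates the change of genes with low values. Because the samples were bulk tissue, fewer cells of a type and less RNA per cell cannot be told apart.

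Reads counted on genes came to between 51879530 and 99089586 per sample. Mock replicate 1 stood apart in long genes: relative to the mean of all samples, the longest of 5 length classes had a median log2 difference of -0.43 there, and of 0.04 to 0.14 in the other samples. Without this trend along gene length, 14 WRKY genes were still called higher and 3 lower. The meristem markers were present in both groups, *STM* at 105 to 132 TPM in SNP and 115 to 137 TPM in Mock samples. The 7 meristem and inflorescence markers together held 456 to 486 TPM in SNP and 542 to 599 TPM in Mock samples. Within this sum *UFO* was called higher (log2 fold change 0.68), and no marker was called lower. *FIL* had 139 to 161 TPM in SNP and 209 to 235 TPM in Mock samples (-0.579, just under the fold limit). *CUC2* had 20.5 to 22.5 TPM in SNP and 25.4 to 32.7 TPM in Mock samples (-0.39). *KNAT1* (-0.16), *STM* (-0.10), *CLV3* (0.14) and *LFY* (0.03) did not pass the criterion either. The 4 root markers together held less than 1 TPM in every sample.

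**Figure D1:**
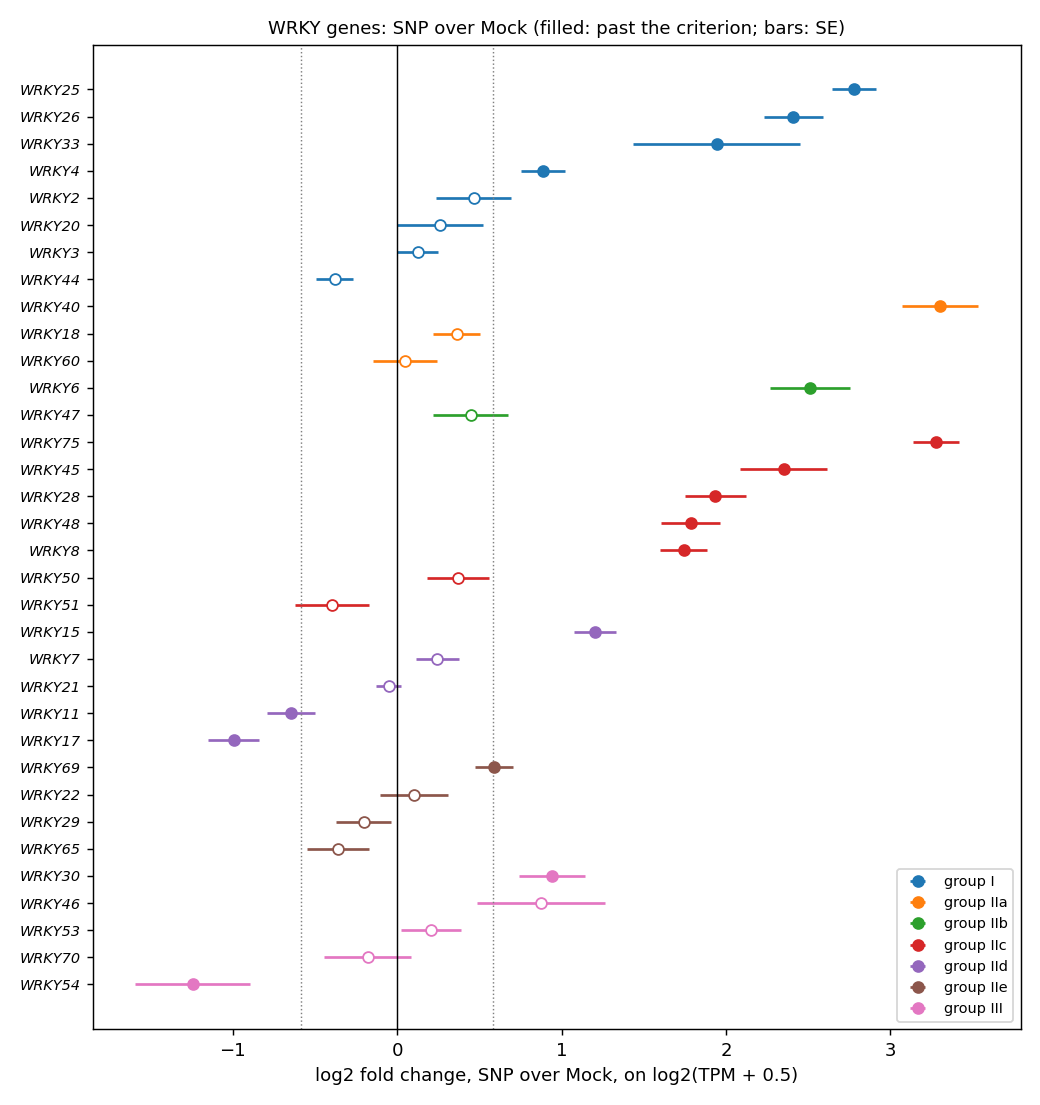
Log2 fold change of SNP over Mock with its standard error (bars) for the 34 tested WRKY genes, ordered by structural group. Filled points passed the criterion, 14 of them to the right of 0 and 3 to the left, and dotted lines mark a fold change of 1.5.

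In group I the increase centred on the closely related genes *WRKY25* (AT2G30250), *WRKY26* (AT5G07100) and *WRKY33* (AT2G38470). *WRKY25*, which acts in heat tolerance and defence, had 25.9, 30.2 and 22.5 TPM in the SNP samples, against 3.61, 3.36 and 3.15 TPM in the Mock samples. Its log2 fold change was 2.78 ± 0.13 (SE, n = 3 per group, limma adjusted p = 4.97e-05), and every SNP sample lay several fold above every Mock sample. *WRKY26*, another heat tolerance gene, had 2.30, 3.17 and 2.18 TPM in SNP, against 0.0317, 0.0394 and 0.141 TPM in Mock samples. It was nearly silent in the Mock apices, where its values stood for 2, 3 and 13 reads. The ratio of the mean TPM was 36.1, while the log2 fold change with the pseudocount of 0.5 was 2.41 ± 0.18 (adjusted p = 0.000247) and moved between 1.72 and 4.0 with other pseudocounts.

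*WRKY33*, a central regulator of camalexin synthesis and of resistance to necrotrophic fungi that is phosphorylated by MAP kinases, was the most abundant of these 3 genes. It had 52.3, 91.5 and 42.1 TPM in the SNP samples, against 7.04, 15.7 and 29.4 TPM in the Mock samples. The groups did not overlap, but Mock replicate 3 came close to the lowest SNP sample. The log2 fold change was 1.94 ± 0.51 (adjusted p = 0.0275). The criterion was missed without SNP replicate 1 (adjusted p = 0.0703), SNP replicate 2 (0.0898) or Mock replicate 2 (0.0643), and the adjusted p ranged from 0.0143 to 0.0898 over all alternatives. The criterion uses the unadjusted p, so an adjusted p printed with a kept or lost call does not decide it.

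*WRKY4* (AT1G13960), which with *WRKY3* acts in resistance to necrotrophs, rose less. It had 32.4, 30.2 and 28.8 TPM in SNP and 14.1, 19.5 and 15.6 TPM in Mock samples, with a log2 fold change of 0.89 ± 0.13 (adjusted p = 0.0039). *WRKY3* itself did not pass the criterion at 43.9 to 49.9 TPM in SNP and 35.9 to 47.9 TPM in Mock samples (log2 fold change 0.13, adjusted p = 0.484). *WRKY44*, known as *TTG2* for its part in trichome and seed coat development, had 9.55 to 10.7 TPM in SNP and 11.8 to 14.0 TPM in Mock samples. Its groups did not overlap, and its log2 fold change of -0.38 (adjusted p = 0.0426) stayed under the fold limit. *WRKY2*, which acts in the polarity of the zygote, and *WRKY20* gave log2 fold changes of 0.47 (adjusted p = 0.165) and 0.26 (adjusted p = 0.488). *WRKY2* had 15.8 to 17.3 TPM in SNP and 8.03 to 15.3 TPM in Mock samples, and *WRKY20* had 24.0 to 26.5 TPM in SNP and 13.0 to 27.2 TPM in Mock samples. Both had their lowest value in Mock replicate 1.

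Subgroup IIa holds *WRKY18*, *WRKY40* and *WRKY60*, pathogen-induced regulators that can form complexes with each other and limit basal defence. *WRKY40* (AT1G80840) and *WRKY75* had the highest log2 fold changes of the tested WRKY genes, and their order was not settled. The gap between them was well within the standard errors, *WRKY75* lay above *WRKY40* with the length trend removed or without SNP replicate 2, Mock replicate 1 or Mock replicate 2, and with a pseudocount of 0.1 *WRKY26* (4.0) and *WRKY75* (3.81) both lay above it. The level of *WRKY40* was 27.9, 46.7 and 34.8 TPM in SNP samples, against 2.99, 2.50 and 4.21 TPM in Mock samples. The log2 fold change was 3.30 ± 0.23 (SE, n = 3 per group, adjusted p = 0.000205). *WRKY18* had 21.9, 18.4 and 17.7 TPM in SNP, against 12.6, 15.6 and 16.7 TPM in Mock samples, a log2 fold change of 0.36 ± 0.14 that did not pass the criterion (adjusted p = 0.0962). *WRKY60* had 4.21 to 5.68 TPM in SNP and 3.53 to 5.70 TPM in Mock samples, and the groups overlapped. The makeup of the subgroup differed between treatments, with *WRKY40* at 50.3%, 67.4% and 60.9% of its summed TPM in the SNP samples and at 14.6%, 10.5% and 17.2% in the Mock samples. *WRKY18* exceeded *WRKY40* in every Mock sample and lay below it in every SNP sample.

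In subgroup IIb, *WRKY6* (AT1G62300), a regulator of senescence and of phosphate transport, was called higher. It had 18.9, 24.1 and 18.8 TPM in SNP samples, against 2.13, 4.59 and 3.21 TPM in Mock samples (log2 fold change 2.51 ± 0.24, adjusted p = 0.000724). No other member of the subgroup reached that range. *WRKY47* had 0.971 to 1.32 TPM in SNP and 0.397 to 1.02 TPM in Mock samples (log2 fold change 0.45, adjusted p = 0.182). *WRKY42*, which acts with *WRKY6* on phosphate transport, had 0.540 to 0.669 TPM in SNP and 0.269 to 0.456 TPM in Mock samples, and its mean of 0.499 TPM fell just short of the filter. *WRKY31* stayed at or under 0.345 TPM in SNP and 0.0380 TPM in Mock samples.

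**Figure D2:**
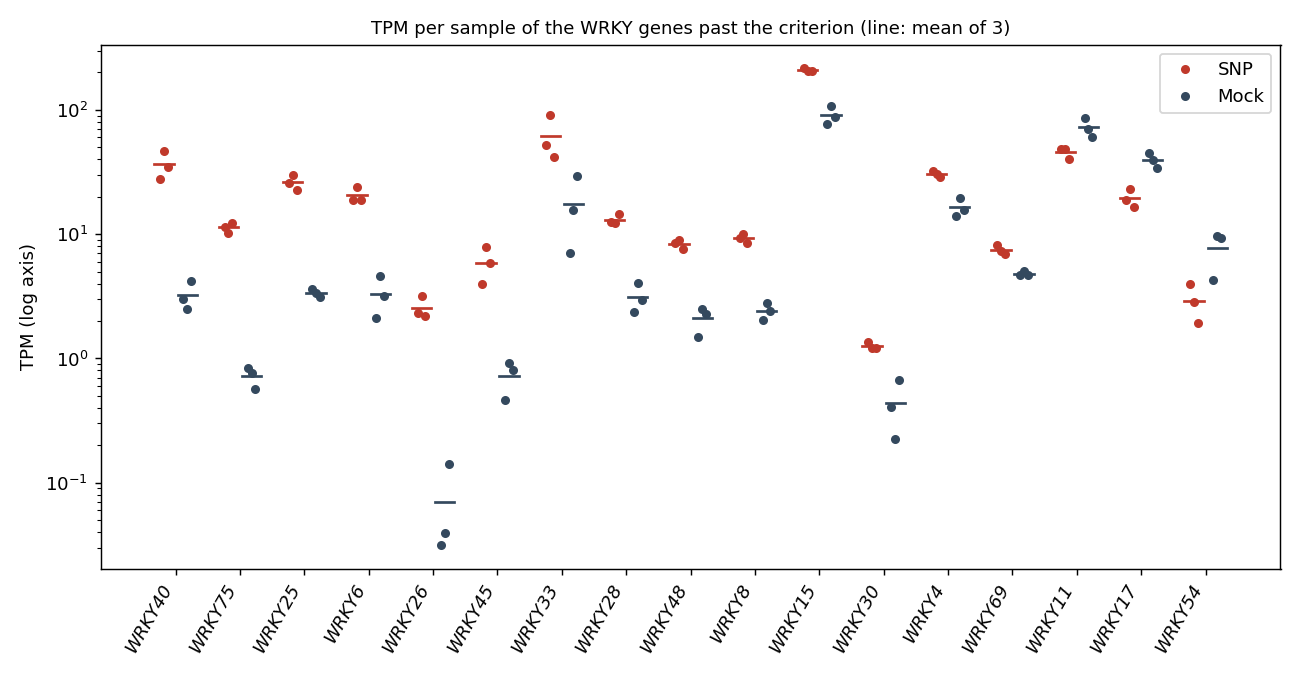
TPM in each sample (points, log axis) and mean of 3 samples (lines) for the 17 WRKY genes past the criterion, SNP samples in red on the left and Mock samples in dark blue on the right of each pair, in order of fold change. The groups do not overlap for any of the 17 genes, and for *WRKY54* the highest SNP sample (3.95 TPM) lies close to the lowest Mock sample (4.25 TPM). The genes were picked by fold change and p on these same values, and 51.2% of all tested genes do not overlap either.

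In subgroup IIc 5 of the 7 members rose, and none fell. *WRKY75* (AT5G13080), which acts in phosphate starvation, root hair growth and senescence, had 11.5, 10.2 and 12.2 TPM in SNP samples, against 0.832, 0.767 and 0.569 TPM in Mock samples. This was a log2 fold change of 3.28 ± 0.14 (adjusted p = 3.05e-05), with little spread among the replicates of either group. *WRKY45* (AT3G01970), a regulator of phosphate uptake and senescence, had 3.94, 7.90 and 5.81 TPM in SNP, against 0.459, 0.915 and 0.803 TPM in Mock samples (log2 fold change 2.35 ± 0.26, adjusted p = 0.00127).

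*WRKY28*, *WRKY48* and *WRKY8* had log2 fold changes of 1.74 to 1.93, and their groups did not overlap. *WRKY28* (AT4G18170), an activator of salicylic acid synthesis, had 12.6, 12.2 and 14.4 TPM in SNP samples, against 2.35, 4.06 and 2.94 TPM in Mock samples (log2 fold change 1.93 ± 0.19, adjusted p = 0.000708). *WRKY48* (AT5G49520), a repressor of basal defence against bacteria, had 8.45, 8.97 and 7.61 TPM in SNP, against 1.49, 2.51 and 2.29 TPM in Mock samples (1.79 ± 0.18, adjusted p = 0.000826). *WRKY8* (AT5G46350), which acts in defence against viruses and *Botrytis*, had 9.29, 10.01 and 8.46 TPM in SNP, against 2.05, 2.82 and 2.41 TPM in Mock samples (1.74 ± 0.14, adjusted p = 0.000342).

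The remaining members of subgroup IIc are the pair with the lysine codon, *WRKY50* and *WRKY51*, which act in the repression of jasmonate responses by salicylic acid. *WRKY50* had 25.6, 17.2 and 17.5 TPM in SNP, against 18.2, 14.7 and 13.2 TPM in Mock samples (log2 fold change 0.37, adjusted p = 0.185). *WRKY51* had 7.60, 4.93 and 3.83 TPM in SNP, against 6.83, 7.33 and 7.04 TPM in Mock samples (log2 fold change -0.39, adjusted p = 0.224). Neither passed the criterion, and the groups overlapped for both genes. Without SNP replicate 1 *WRKY51* was called lower, with a log2 fold change of -0.64 (adjusted p = 0.045). In every SNP and every Mock sample *WRKY50* was the most abundant gene of the subgroup.

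Subgroup IId, whose proteins bind calmodulin, gave changes in both directions. *WRKY15* (AT2G23320), which acts in responses to oxidative stress and in growth, was the most abundant WRKY gene in the SNP samples. It had 215, 205 and 204 TPM there, against 77.0, 108 and 88.1 TPM in Mock samples (log2 fold change 1.20 ± 0.13, adjusted p = 0.00101). The closely related genes *WRKY11* and *WRKY17* (AT2G24570), which act together as negative regulators of basal resistance, both fell. *WRKY17* had 18.9, 23.2 and 16.7 TPM in SNP samples, against 45.1, 39.4 and 33.9 TPM in Mock samples (log2 fold change -0.99 ± 0.15, adjusted p = 0.00447). This call was kept under all 16 alternatives run for single genes, but the decrease fell just short of a fold limit of 2. *WRKY11* (AT4G31550) had 48.6, 48.9 and 40.2 TPM in SNP, against 86.7, 70.2 and 60.8 TPM in Mock samples (-0.65 ± 0.15, adjusted p = 0.0179). Its call was lost without SNP replicate 3 (-0.55), Mock replicate 1 (-0.51) or Mock replicate 2 (-0.66, adjusted p = 0.0429, over a range of 0.00746 to 0.0738). *WRKY21* had 83.0 to 85.8 TPM in SNP and 83.3 to 92.2 TPM in Mock samples, with a log2 fold change of -0.05 ± 0.08. *WRKY7* had 56.3 to 61.8 TPM in SNP and 44.4 to 59.6 TPM in Mock samples and did not pass the criterion either (0.24, adjusted p = 0.196).

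In subgroup IIe *WRKY22* and *WRKY29*, which act downstream of MAP kinases in the response to bacterial flagellin, did not pass the criterion. *WRKY22* had 6.72 to 9.35 TPM in SNP and 5.62 to 9.16 TPM in Mock samples (log2 fold change 0.10, adjusted p = 0.736). *WRKY29* had 0.574 to 0.789 TPM in SNP and 0.674 to 1.01 TPM in Mock samples (-0.20, adjusted p = 0.397). *WRKY69* (AT3G58710) had 8.26, 7.28 and 6.98 TPM in SNP, against 4.65, 5.09 and 4.70 TPM in Mock samples. Its log2 fold change of 0.59 ± 0.12 (adjusted p = 0.01) lay just past the fold limit of 0.58, and 6 of 16 alternatives took it below the limit or the p threshold. *WRKY65* had lower values in every SNP sample than in any Mock sample, 2.96 to 3.50 TPM against 3.51 to 5.73 TPM, but did not pass the criterion (-0.36, adjusted p = 0.196).

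Group III holds regulators of senescence and salicylic acid signalling, and 5 of its 8 members were tested. *WRKY30* (AT5G24110), a gene induced by reactive oxygen species, had 1.36, 1.21 and 1.21 TPM in SNP samples, against 0.406, 0.225 and 0.675 TPM in Mock samples. Its log2 fold change of 0.94 ± 0.20 (adjusted p = 0.0142) was between 0.67 and 1.43 with other pseudocounts. *WRKY54* (AT2G40750), a negative regulator of senescence that works with *WRKY70*, had 3.95, 2.84 and 1.93 TPM in SNP, against 4.25, 9.75 and 9.35 TPM in Mock samples (-1.24 ± 0.35, adjusted p = 0.0349). Mock replicate 1 lay near the highest SNP sample. The call was lost in 6 of 16 alternatives, among them the removal of SNP replicate 2 (adjusted p = 0.0918), SNP replicate 3 (0.116), Mock replicate 2 (0.0953) or Mock replicate 3 (0.105), and without Mock replicate 1 the adjusted p was lowest (0.00353). *WRKY70*, the most abundant member of group III, had 142, 99.0 and 109 TPM in SNP, against 86.3, 167 and 155 TPM in Mock samples. Here too Mock replicate 1 was the lowest Mock sample, and the difference did not pass the criterion (-0.18 ± 0.26, adjusted p = 0.64).

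*WRKY53*, which promotes leaf senescence, had 5.06 to 7.03 TPM in SNP and 3.98 to 5.82 TPM in Mock samples (log2 fold change 0.21, adjusted p = 0.43). *WRKY46*, which acts in defence and in the response to drought, had 20.8, 11.8 and 14.7 TPM in SNP, against 6.34, 5.42 and 15.4 TPM in Mock samples. Mock replicate 3 lay within the SNP range, and the log2 fold change of 0.87 ± 0.39 did not pass the criterion (adjusted p = 0.134). Without this sample it was called, at 1.31 (adjusted p = 0.019, against 0.331 as the highest value over the alternatives). *WRKY38*, *WRKY41* and *WRKY55* were near 0, with at most 0.388 TPM in any SNP sample and 0.208 TPM in any Mock sample. The 5 members under the filter had at most 60 reads in a sample and were not tested, and among them the groups did not overlap for *WRKY31* and *WRKY42*.

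**Figure D3:**
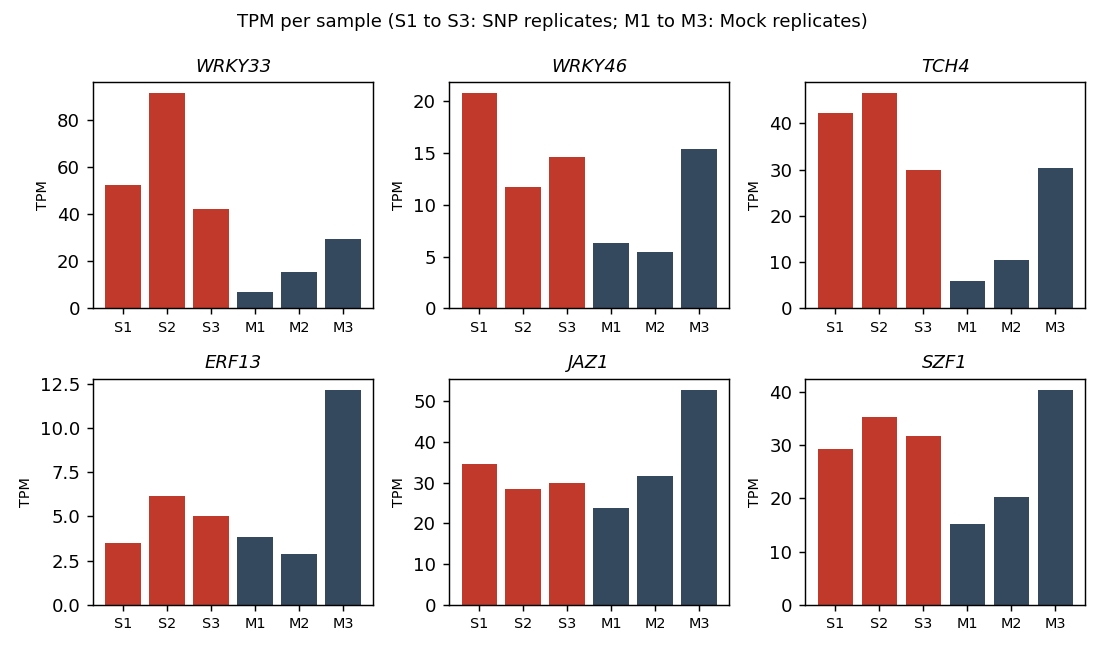
TPM in each sample for *WRKY33*, *WRKY46* and 4 genes of the touch and wound response, SNP samples (S1 to S3) in red on the left and Mock samples (M1 to M3) in dark blue on the right. Mock replicate 3 is the highest Mock sample in all 6 panels, at 29.4 TPM for *WRKY33* and 15.4 TPM for *WRKY46*.

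The high values of *WRKY33* and *WRKY46* in Mock replicate 3 went along with those of touch and wound genes. In 10 of the 13 genes of that list Mock replicate 3 was the highest Mock sample, whereas this was so for 31.8% of all tested genes and for 7 of the 34 tested WRKY genes. *TCH4*, a touch-induced cell wall enzyme, had 42.2, 46.6 and 30.0 TPM in SNP, against 5.92, 10.4 and 30.3 TPM in Mock samples. *ERF13*, a wound-induced transcription factor, had 3.47, 6.14 and 5.04 TPM in SNP, against 3.83, 2.87 and 12.2 TPM in Mock samples. These genes were picked after their values were seen. The summed TPM of the list was 449, 492 and 436 in SNP samples and 214, 231 and 380 in Mock samples, and its part in the spread of the WRKY genes was not tested. Without Mock replicate 3, 14 WRKY genes were called higher and 2 lower.

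Summed over all 39 genes, WRKY transcripts held 955 ± 55.4 TPM in SNP samples and 702 ± 88.0 TPM in Mock samples (SD, n = 3 each). The lowest SNP sample had 891 TPM and the highest Mock sample had 780 TPM. Subgroup IId made up the largest part in both groups, with 417 ± 13.7 TPM in SNP and 340 ± 27.4 TPM in Mock samples. Subgroup IIb, most of it *WRKY6*, had the largest ratio of means (5.05), with 22.6 ± 2.90 TPM in SNP and 4.47 ± 1.64 TPM in Mock samples. Subgroup IIa held 60.6 ± 7.57 TPM in SNP and 22.9 ± 2.16 TPM in Mock samples, subgroup IIc 73.4 ± 4.85 TPM in SNP and 31.5 ± 2.03 TPM in Mock samples, and group I 219 ± 36.0 TPM in SNP and 127 ± 29.4 TPM in Mock samples. The sums of subgroup IIe and group III overlapped between treatments. Group III held 143 ± 28.6 TPM in SNP and 159 ± 47.9 TPM in Mock samples, most of it *WRKY70*. With 3 samples against 3 the smallest p of an exact permutation test is 0.1, so none was used for these sums.

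**Figure D4:**
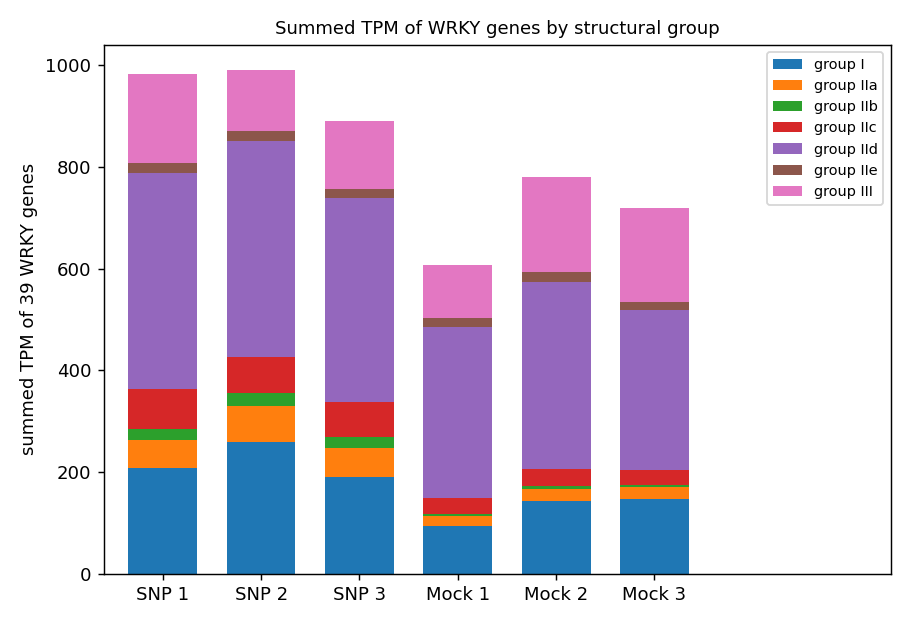
Summed TPM of the 39 WRKY genes in each sample, stacked by structural group, SNP samples on the left and Mock samples on the right. The SNP samples reach 891 to 991 TPM and the Mock samples 607 to 780 TPM, with subgroup IId as the largest part of each bar.

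The groups did not overlap for 21 of the 34 tested WRKY genes (61.8%), 16 with higher and 5 with lower SNP values, and for 51.2% of all tested genes. All 17 called members, picked on these same values, were among them. The others were *WRKY2*, *WRKY18*, *WRKY44* and *WRKY65*. Across the 16 alternatives that left the criterion as it was, 13 of the 17 called members were called every time they were tested, 12 of them higher and *WRKY17* lower. The exceptions were *WRKY33*, *WRKY69*, *WRKY11* and *WRKY54*.

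The W-box core was found within 300 bases upstream of 28 of the 39 members (71.8%), and of 50.4% of all 27443 annotated promoters. It was searched as TTGAC on both strands. At 2 or more places it was present in 30.8% of the members and in 17.9% of all promoters. By call, it was present in 12 of the 14 members that rose, in 2 of the 3 that fell, in 10 of the 17 tested members without a call and in 4 of the 5 members under the filter. Its extended form TTGACC was present in 20.5% of the members and 14.0% of all promoters, and TTGACT in 33.3% of the members and 22.0% of all promoters. *WRKY4* and *WRKY69* rose without a core in this window. The TGACG element of TGA factors, which can overlap the W-box core in 4 bases, was present in 20.5% of the members and 21.3% of all promoters. The mitochondrial dysfunction motif was in 0 of the 39 windows and in 2.08% of all promoters. With windows of 500 and 1000 bases, lengths chosen after the data were seen, the core was present in 89.7% and 97.4% of the members and in 67.4% and 88.1% of all promoters. The windows of *WRKY7*, *WRKY25*, *WRKY26* and *WRKY45* overlap a neighbouring gene. These matches describe the sequence and do not show binding.

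**Figure D5:**
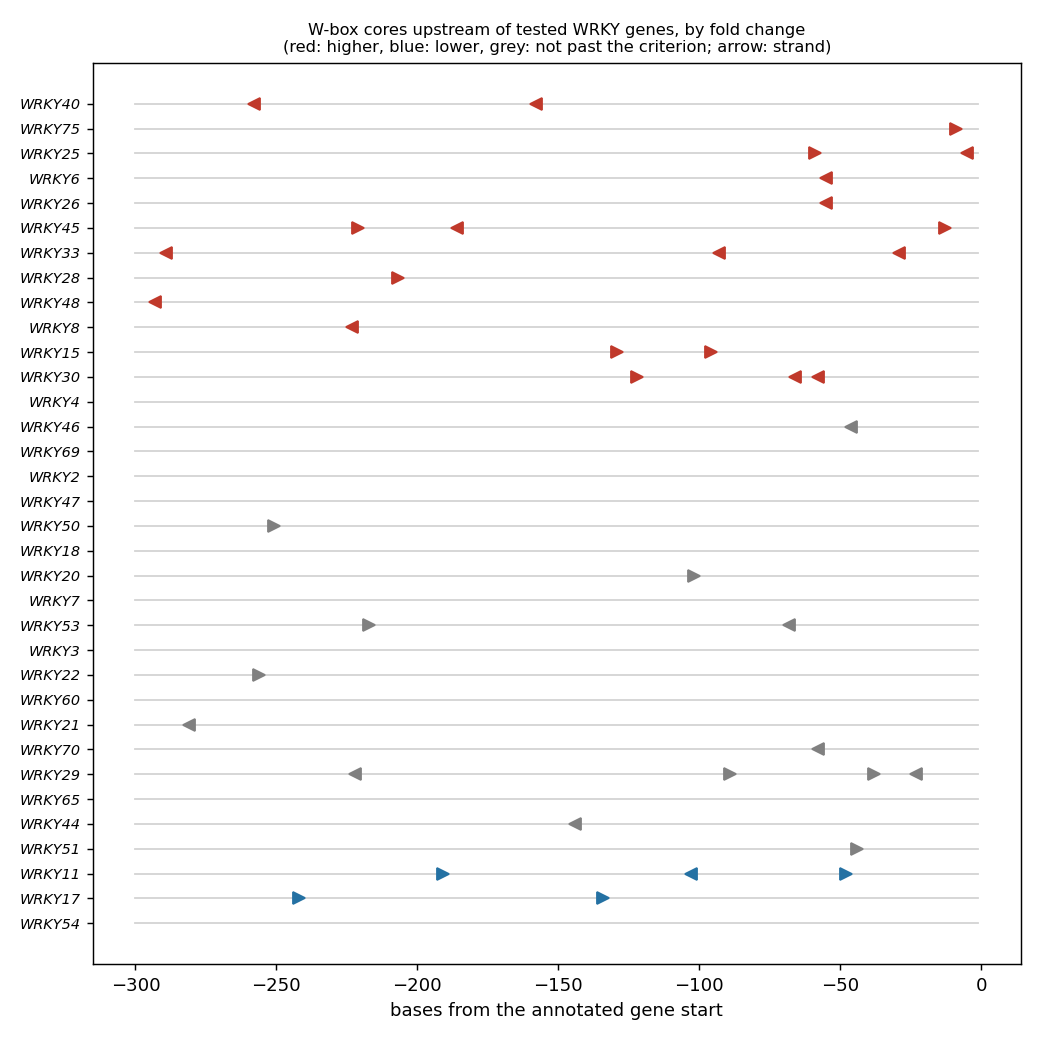
Positions of the W-box core in the 300 bases upstream of the annotated gene start (x axis, bases) of the 34 tested WRKY genes, ordered by fold change with the largest increase on top. Red, blue and grey arrows mark genes called higher, called lower or not called, and point in the direction of the strand. Cores lie in 12 of the 14 windows of genes that rose and in 10 of the 17 of genes without a call.

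Other parts of WRKY signalling were read from gene lists, which were chosen with earlier results of these data known. Of 33 further WRKY genes in the table, 17 were tested, with a median log2 fold change of 0.11. Their called share was 5.88%, below the 16.9% of all tested genes. The single call was *WRKY63*, a regulator of abscisic acid responses, with 1.99, 1.60 and 2.26 TPM in SNP samples, against 0.0489, 0.102 and 0.0502 TPM in Mock samples (log2 fold change 2.10 ± 0.16, adjusted p = 0.000273), a value that the pseudocount holds down. It passed the filter only through the SNP samples. Of the VQ-motif genes, whose proteins bind WRKY factors, 12 were tested. Of these 6 were called higher and none lower (50%, against 16.9% of all tested genes), with a median log2 fold change of 0.63. *VQ1* had 9.0, 7.88 and 10.3 TPM in SNP, against 3.10, 3.64 and 2.53 TPM in Mock samples (1.42, adjusted p = 0.00134). *JAV1*, a repressor of jasmonate defence, followed with 1.14 (adjusted p = 0.0032), *VQ32* with 0.90 (adjusted p = 0.00589) and *VQ28* with 0.79 (adjusted p = 0.00707). *VQ28* passed the filter only through the SNP samples, with a mean of 0.905 TPM in SNP and 0.313 TPM in Mock samples, and with a filter of 1 TPM 5 VQ genes were called higher. With 75th percentile scaling, or without SNP replicate 1 or SNP replicate 2, the number was 4.

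Of 17 tested MAP kinase and calcium-dependent kinase pathway genes, 2 were called higher and 1 lower, with a median of 0.25. This share of 17.6% was close to the 16.9% of all tested genes. The higher count was 1 when SNP replicate 1, SNP replicate 3 or any of the 3 Mock replicates was left out, without a filter, with the length trend removed or with median-of-ratios scaling, and 0 with 75th percentile scaling. *MPK11*, a MAP kinase activated by bacterial elicitors, had 8.34, 4.98 and 5.44 TPM in SNP and 3.86, 3.48 and 3.09 TPM in Mock samples (0.74, adjusted p = 0.0324). *MKK9*, a MAP kinase kinase, gave a log2 fold change of 0.66 (adjusted p = 0.0102). *AP2C1*, a phosphatase that inactivates MAP kinases, fell by 0.72 on the log2 scale (adjusted p = 0.0125).

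Among genes reported elsewhere to be bound or controlled by WRKY factors, 14 were tested. Of these 7 were called higher and none lower (50%, against 16.9% of all tested genes), with a median log2 fold change of 1.49. The list does not separate targets that WRKY factors activate from targets that they repress. Whether the rises followed the WRKY genes was not tested. *PAD3*, the camalexin enzyme controlled by *WRKY33*, had 21.6, 12.9 and 23.3 TPM in SNP samples, against 2.85, 0.665 and 0.490 TPM in Mock samples (3.61 ± 0.47, adjusted p = 0.00228). *AOX1A*, the alternative oxidase of mitochondria, had 117, 97.5 and 131 TPM in SNP, against 12.8, 10.6 and 12.2 TPM in Mock samples (3.22 ± 0.13, adjusted p = 2.48e-05). *ZAT12*, a zinc finger gene of oxidative stress, gave 3.27 (adjusted p = 0.000332). *ACS2*, an enzyme of ethylene synthesis, gave 2.28 (adjusted p = 0.000396) and passed the filter only through the SNP samples, with a mean of 0.456 TPM in Mock samples. For each of these named targets the SNP samples lay above every Mock sample. They were picked as called targets with the largest changes, so this was nearly fixed by the choice. The groups did not overlap for 51.2% of all tested genes. The targets that were tested and not called were *ACS6* (log2 fold change 0.02), *ICS1* (0.03), *JAZ8* (0.11), *PHO1* (0.19), *GL2* (0.38), *EDS1* (-0.29) and *ZAT10* (1.56).

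Markers of pattern-triggered immunity moved less uniformly, with 2 of 10 tested genes called higher, 1 lower and a median of 0.19. Their called share was 30%, against 16.9% of all tested genes. *NHL10* had 5.32, 1.59 and 2.92 TPM in SNP samples, against 0.333, 0.178 and 0.0326 TPM in Mock samples (2.37, adjusted p = 0.00463), and passed the filter only through the SNP samples. The flagellin receptor gene *FLS2* rose by 0.72 on the log2 scale (adjusted p = 0.00194). The number of higher calls was 1 with the length trend removed and 4 without a filter. *PROPEP1*, a precursor of an immune peptide, fell by 0.78 on the log2 scale (adjusted p = 0.0047). The list genes under the filter, *PER4*, *CYP81F2*, *PROPEP2* and *PROPEP3*, were not tested. Their means were 0.29 to 0.75 TPM in SNP and 0.08 to 0.26 TPM in Mock samples, higher in SNP for each gene. In the list of 13 touch and wound genes 8 were called higher and 0 lower without Mock replicate 3. With all samples 4 were called higher and 1 lower (38.5%, against 16.9% of all tested genes), with a median of 0.90. The calls were *ZAT12*, which is also in the list of targets, *ATL31* (2.61), *TCH3* (1.23), *SZF2* (0.90) and *TCH2* (-0.74). The call of *TCH2* was also lost without SNP replicate 1, SNP replicate 2 or Mock replicate 1, and with a pseudocount of 1, without a filter, with a robust fit, without the variance trend, with median-of-ratios scaling or with the length trend removed.

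Of the 3 senescence markers tested, 2 rose (66.7%, where 16.9% of all tested genes were called). *SAG21* had 382, 265 and 334 TPM in SNP samples, against 30.8, 14.9 and 19.1 TPM in Mock samples (log2 fold change 3.94, adjusted p = 0.000168). *SAG13* gave 3.22 (adjusted p = 0.00134), *SAG101* did not pass the criterion (0.52), and *SAG12* is not analysed here. The 3 markers together held 286 to 411 TPM in SNP and 26.2 to 42.4 TPM in Mock samples, most of it *SAG21* in the SNP samples. The 4 vasculature markers held 101 to 127 TPM in SNP and 55.7 to 77.0 TPM in Mock samples. Of them *SUC2* (1.07) and *XCP1* (1.31) were called higher (50%). The summed TPM of the 4 green leaf markers overlapped between treatments, at 5150 to 6016 TPM in SNP and 4821 to 5524 TPM in Mock samples. None of the 4 was called. The groups did not overlap for *LHCB4.1*, with 503.5 to 567.8 TPM in SNP and 371.3 to 487.5 TPM in Mock samples. The part of senescence or of vascular tissue in the changes of the WRKY genes was not tested.

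Some WRKY genes overlap a gene on the opposite strand. The libraries were strand-specific, but the strand setting used in counting is not given in the sources used here, so reads in the shared stretch may be uncertain. *WRKY40* overlaps AT1G80850, which had 30.3 to 31.9 TPM in SNP and 37.3 to 43.6 TPM in Mock samples, opposite in direction to *WRKY40*. *WRKY33* overlaps AT2G38480, with 1.25 to 1.93 TPM in SNP and 2.75 to 3.30 TPM in Mock samples. *WRKY53* overlaps AT4G23800, whose 146 to 229 TPM in SNP and 350 to 423 TPM in Mock samples lay far above the level of *WRKY53* itself, and *WRKY41* and *WRKY2* overlap genes at 29.8 to 36.2 and 46.6 to 53.5 TPM in SNP and at 43.8 to 47.8 and 44.5 to 61.6 TPM in Mock samples. The partners of *WRKY4*, *WRKY29* and *WRKY69* for which values were at hand had at most 3.22 TPM in SNP and 3.14 TPM in Mock samples.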

How the data were processed

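Strand-specific RNA-seq libraries of 3 SNP and 3 Mock samples were analysed. STAR was used by the authors for alignment to TAIR10, and the deposited values are TPM per gene and sample. Columns that hold a log2 fold change and p-values computed by the authors were left aside. FastQC and DESeq2 are also named in the submitters' processing notes, whereas the methods name DEGseq. The counting tool is not given in the sources used here.

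Testing covered genes whose mean reached 0.5 TPM, on log2(TPM + 0.5) with limma 3.58.1 in R 4.3.3 (lmFit, eBayes with a mean-variance trend, 2-sided), without a replicate block, and with Benjamini-Hochberg adjustment over 18966 genes. No count model was run, because the table holds TPM. TPM times TAIR10.1 exon length gave whole multiples of a per-sample step for 99.4% of values (tolerance 0.05), from which reads were recovered. Positions and sequences were taken from RefSeq TAIR10.1 by locus tag with Python 3.11.15 and Biopython 1.88. The nuclear sequence of TAIR10.1 is that of TAIR10. Every member is accounted for, members past the criterion are named with all values, and from each other list up to 4 called genes with the largest changes are named. The members and lists were chosen with earlier results of these data known. Whether equal replicate numbers share plants is not stated, and p-values set the difference of group means against the spread between these samples. The limma step was tested on simulated data. Alternatives were other pseudocounts, filters, scalings, variance models, call rules, a replicate block, removal of the length trend and of each sample.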

Additional observations from a re-analysis of the deposited data

How the results depend on the processing

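Members called higher numbered 11 to 14 and members called lower 1 to 4 over all alternatives. Leaving out each sample in turn gave 12 to 14 higher, 1 to 4 lower and 2724 to 3339 called genes in all. A fold limit of 2 gave 11 higher and 1 lower member and 1474 genes in all, and an adjusted p under 0.05 gave 5619 genes. Of 541 comparisons of a single member with an alternative, 514 kept direction and side of the criterion, 18 lost the call, 2 gained it and 7 changed sign. The sign changes were in uncalled genes. *WRKY60* was at -0.0011 with median-of-ratios and -0.033 with 75th percentile scaling, and between -0.12 (without Mock replicate 3) and 0.19 with a sample left out, below 0 also without SNP replicate 1. *WRKY22* lay between -0.043 and 0.29, below 0 without SNP replicate 2 or Mock replicate 3, and *WRKY20* between -0.066 (without Mock replicate 1) and 0.45. The cause was not tested. Of all called genes 62.1% were higher as deposited, 55.5% with median-of-ratios and 51.0% with 75th percentile scaling. Those scalings took *WRKY69* under the fold limit. Samples of equal replicate number correlated at 0.304, -0.0017 and -0.091 in their deviations. With 3 samples per group these values cannot tell whether the numbers pair the samples. With the number as a block, 14 members were called higher, 2 lower and 3457 genes in all, and *WRKY54* lost its call (adjusted p = 0.0428). A setting with a mean of at least 1 TPM tested 31 members. EdgeR and DESeq2 were not run. Members with few reads, such as *WRKY26* in Mock samples, carry the largest counting error.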
